A study of Homo sapiens with 6 samples.

Results

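The genes described here are 10 markers used to recognise mesenchymal stem cells (MSCs), taken from 28181 genes in the deposited tables by a fixed list of symbols matched to Ensembl identifiers. The 8 positive markers were NT5E (CD73), THY1 (CD90), ENG (CD105), ALCAM (CD166), MCAM (CD146), CD44, NGFR (CD271) and NES (nestin), and the 2 negative markers were CD34 and PTPRC (CD45). All 10 were found, and all 10 passed the filter of a mean of at least 1 over the 6 libraries. The cells were UE7T-9, a human bone marrow MSC line immortalized with hTERT and the E7 gene of a papillomavirus. UE7T-9 SHC4 cells had been infected with a lentivirus that drives SHC4, an adaptor protein that binds receptor tyrosine kinases, from a CMV promoter. UE7T-9 Cont cells carried a GFP vector of the same type according to the study's methods, while the labels call them nontarget with a wild-type genotype. Both groups were grown in DMEM and were put under puromycin selection, and each group had 3 libraries. The series' design text speaks of clones of the SHC4 line, and no source used here says whether the libraries of a group came from separate infections, clones or cultures, so that p-values measure the spread between these samples, which may be technical. The study sought a factor that brings these cells into decellularized bone, and the comparison below asks what the identity markers did under SHC4 overexpression.

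MSCs are commonly defined in culture by the surface proteins CD73, CD90 and CD105 together with the absence of hematopoietic antigens such as CD45 and CD34. CD73 makes adenosine at the cell surface, CD90 is a lipid-anchored glycoprotein that binds integrins, and CD105 is a co-receptor of the TGF-beta family. CD146 and CD271 are used to enrich stromal progenitors from fresh bone marrow, and CD271 is known to be lost when such cells are cultured.

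Promoter sequences are shown for 3 markers that stand at the top, the lower part and the bottom of the order of levels given below. They are the 250 bases before the start site of each gene in the RefSeq promoter table (assembly GRCh38), read 5' to 3' on the strand of the gene, and capitals mark CpG dinucleotides. The NT5E window lies at chr6:85449833-85450082 on the plus strand, the CD34 window at chr1:207911126-207911375 on the minus strand and the PTPRC window at chr1:198638790-198639039 on the plus strand. The gene positions given further below are from GENCODE 29, whose starts differ: 85449584 for NT5E, 207911402 for CD34 and 198638457 for PTPRC. By those positions all 3 windows lie inside the gene, downstream of its outermost start.
NT5E: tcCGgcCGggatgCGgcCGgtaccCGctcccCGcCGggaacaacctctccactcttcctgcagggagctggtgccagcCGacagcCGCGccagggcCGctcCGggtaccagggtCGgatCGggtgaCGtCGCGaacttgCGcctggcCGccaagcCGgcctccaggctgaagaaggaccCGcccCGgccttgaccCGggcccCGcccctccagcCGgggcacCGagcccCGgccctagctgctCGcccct
CD34: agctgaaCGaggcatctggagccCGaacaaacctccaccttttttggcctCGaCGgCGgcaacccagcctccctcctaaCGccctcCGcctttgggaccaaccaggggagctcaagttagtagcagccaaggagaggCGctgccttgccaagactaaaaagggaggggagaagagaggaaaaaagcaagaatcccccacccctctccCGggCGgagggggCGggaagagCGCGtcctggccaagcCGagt
PTPRC: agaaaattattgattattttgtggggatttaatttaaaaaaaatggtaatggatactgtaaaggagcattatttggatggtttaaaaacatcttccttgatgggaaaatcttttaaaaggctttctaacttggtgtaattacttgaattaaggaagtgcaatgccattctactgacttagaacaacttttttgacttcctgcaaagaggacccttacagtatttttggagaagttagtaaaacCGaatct
The NT5E window held 28 CpG and was 75.2% G or C, the CD34 window held 14 CpG at 61.6%, and the PTPRC window held 1 CpG at 31.2%. The median over the 35116 promoters of the table was 11 CpG and 58% G or C. The table held 8 of the 10 markers, with THY1 and NGFR as the missing entries. The CpG count was 26 for MCAM, 20 for ALCAM, 15 for CD44, 8 for NES and 7 for ENG, so that CpG number did not follow the order of levels: MCAM had more CpG than ALCAM and ENG, which stood far above it in level. The letters GGGCGG, on either strand, were present in 6 of these 8 windows and in 42.6% of all promoters. CCAAT (32% of all promoters), TATAAA (10.7%) and TTCNNNGAA (6.57%), also sought on both strands, were present in 0 of the 8. These matches describe letters in the window only.

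The libraries held 18144993 to 27721397 reads assigned to genes. The deposited value is the count of a gene divided by 1 size factor per library, called a normalized count here. SHC4 itself was at 56.5, 157 and 129.9 normalized counts in the controls and at 134870.4, 119166 and 155006 in the SHC4 libraries, which fits the labels. The first library of each group stood apart from the other two: over the 12678 genes whose mean reached 50, the mean absolute log2 difference between Cont 1 and SHC4 1 was 0.236. Cont 1 lay 0.346 from Cont 2 and 0.436 from Cont 3, and SHC4 1 lay 0.303 from SHC4 2 and 0.319 from SHC4 3. Without Cont 1 limma called 367 genes higher and 339 lower, and without SHC4 1 it called 49 and 14. It called 6 and 0 without Cont 2, 8 and 2 without Cont 3, 1 and 1 without SHC4 2, and 1 and 1 without SHC4 3. Cont 1 was singled out from these same data as the control nearest to an SHC4 library, so that calls made without it are no separate support. Calls that appear without Cont 1 are given beside the results they touch.

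The positive markers of the cultured-MSC definition were abundant in the controls. Both negative markers were below the median tested gene, with PTPRC near the low end and CD34 detected at a low level. Levels of different genes are compared only as normalized counts per kilobase of exon, on which scale the median of 23040 tested genes in the controls was 29.9. NT5E led at 4126 ± 1089 (SD, n = 3), above 99.4% of tested genes. ALCAM followed at 2118 ± 279 and ENG at 1587 ± 419, then CD44 at 1014 ± 59.7 and THY1 at 729.5 ± 503. These 5 genes each stood above 94.9% or more of tested genes. MCAM at 164 ± 27.7 and NES at 141 ± 126 lay above 75.9% and 73.2% of tested genes. CD34 was at 5.08 ± 0.247, NGFR at 3.28 ± 2.13 and PTPRC at 0.484 ± 0.228, all under the median, with 28.0%, 22.0% and 3.7% of tested genes below them. Thus NGFR, listed as a positive marker, ranked below the negative marker CD34 in each of the 3 control libraries, although the ranges of these 2 genes overlapped.

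Not every step of this order was larger than the spread between control libraries. ALCAM and ENG, CD44 and THY1, MCAM and NES, and CD34 and NGFR had overlapping ranges. The ranges did not overlap between NT5E and ALCAM, ENG and CD44, THY1 and MCAM, NES and CD34, or NGFR and PTPRC. Without Cont 1 the order of the 10 markers was the same, but the control level per kilobase was 441 for THY1 and 69.8 for NES. In UE7T-9 SHC4 the same per-kilobase scale put THY1 (1402 ± 186) above CD44 (1141 ± 73.9) and NES (125 ± 72.9) above MCAM (110.1 ± 20.9), and the remaining ranks were as in the controls.

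**Figure D1:**
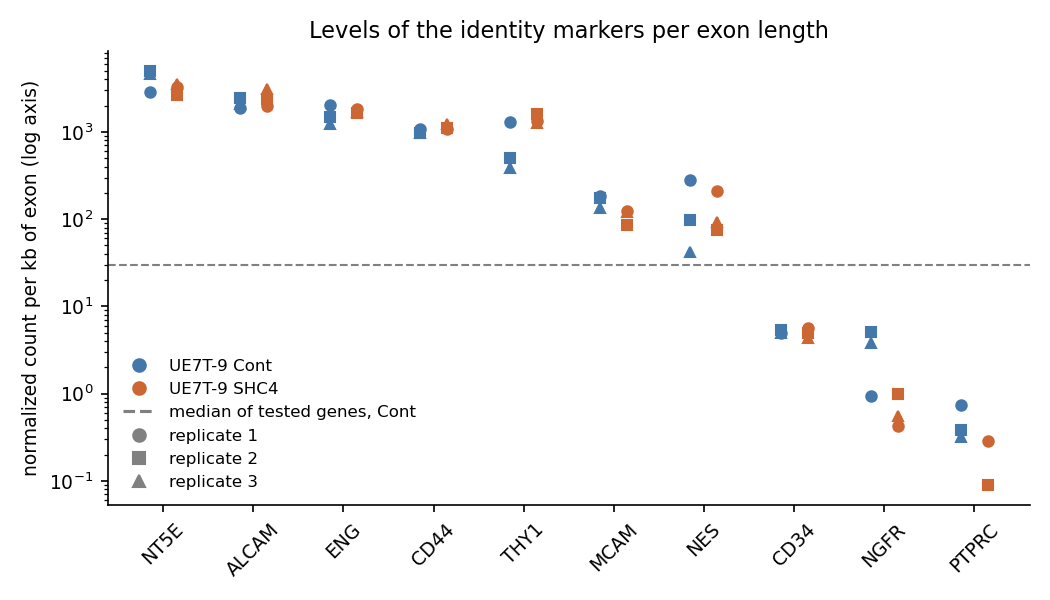
Level of each identity marker in normalized counts per kilobase of exon (log axis), with 1 point per library, blue for UE7T-9 Cont and orange for UE7T-9 SHC4, and marker shapes for replicates 1 to 3. The dashed line is the median of tested genes in UE7T-9 Cont (29.9); 7 markers lie above it and CD34, NGFR and PTPRC below, and PTPRC in SHC4 3, at 0, cannot be drawn on a log axis.

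In UE7T-9 SHC4 none of the 10 markers passed the test in either direction. The test was limma on log2(normalized count + 1) over 23040 genes, where a call needed both an adjusted p (Benjamini-Hochberg) under 0.05 and a log2 fold change beyond 1 in size, and it called 0.0608% of tested genes (12 higher and 2 lower). At an unadjusted p below 0.05 there were 3 markers (THY1, MCAM and NGFR), against 14.4% of all tested genes. DESeq2 on the recovered reads gave an adjusted p for 8 markers and called 0 of them, against 2.2% of genes, and edgeR also called 0, against 0.0631%. The groups did not overlap for 3 of the 10 markers, CD44 higher and MCAM and PTPRC lower, where 19.3% of all tested genes did not overlap (9.13% higher and 10.2% lower). For PTPRC this holds only after scaling, since Cont 2, Cont 3 and SHC4 1 each had 3 reads. The log2 fold change was positive for 5 markers and negative for 5, with a median of 0.04 beside -0.004 over all tested genes.

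**Figure D2:**
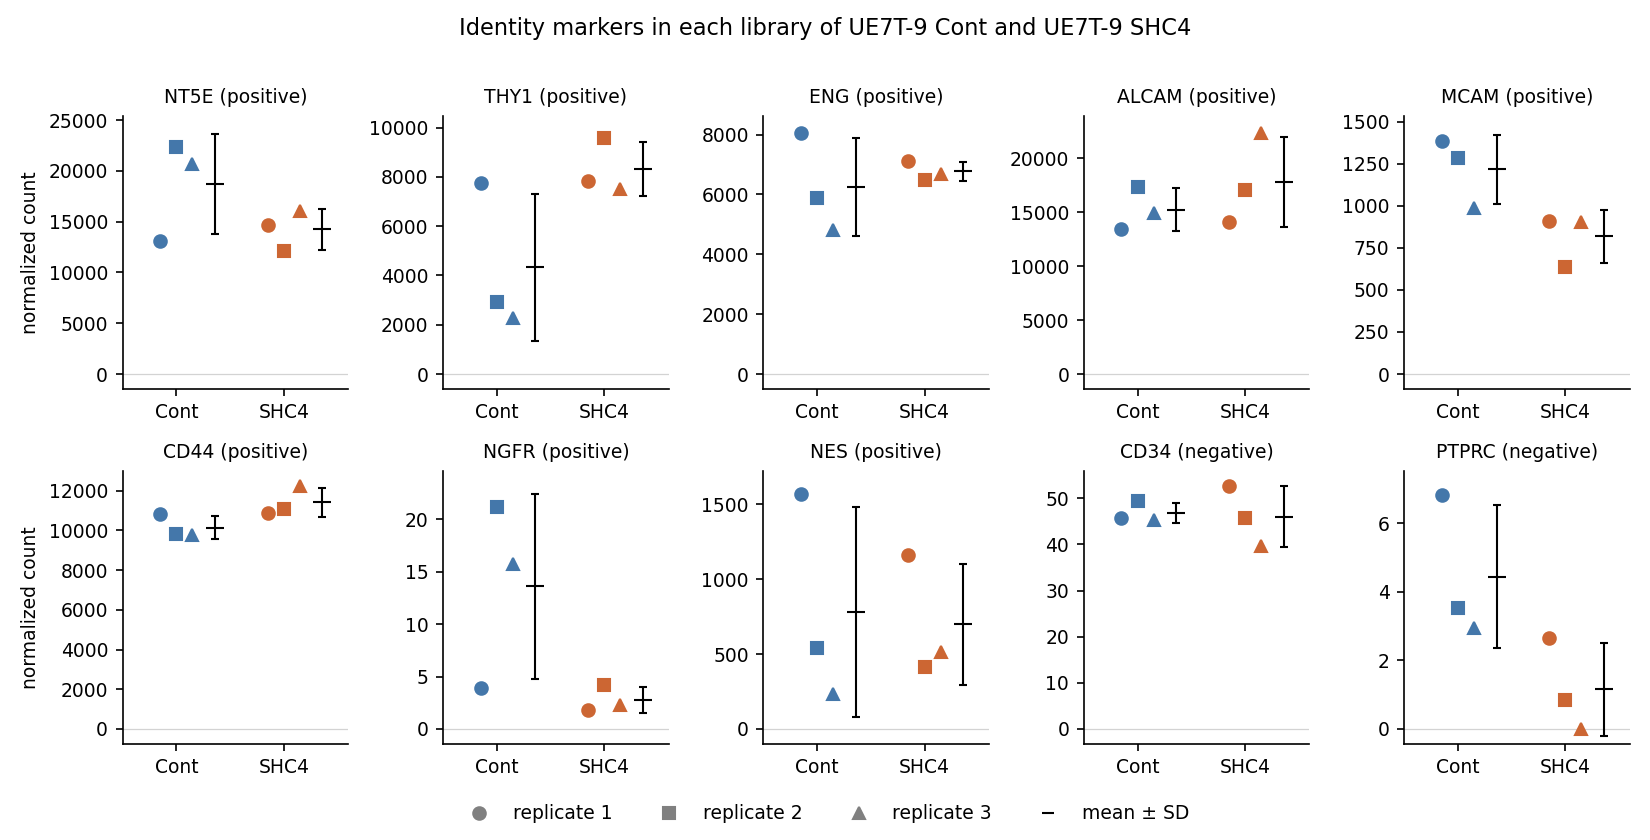
Normalized count of each identity marker in the 3 UE7T-9 Cont (blue) and 3 UE7T-9 SHC4 (orange) libraries, each panel on its own linear axis, with mean ± SD beside the points. CD44, MCAM and PTPRC have separate groups, for PTPRC only after scaling, since Cont 2, Cont 3 and SHC4 1 each had 3 reads. THY1 in Cont 1 (7742) lies among the SHC4 libraries (7512 to 9569.9).

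Of the 3 surface markers of the culture definition, NT5E had a negative fold change and THY1 and ENG positive ones, none of which passed the test. NT5E (ENSG00000135318, GRCh38 chr6:85449584-85495791, plus strand) encodes the ecto-enzyme that turns AMP into adenosine. Its normalized counts were 13089, 22364 and 20649 in the controls and 14682, 12068 and 16005 in the SHC4 libraries. Cont 2 and Cont 3 lay above all SHC4 libraries and Cont 1 lay among them. Its log2 fold change was -0.36 (SE 0.23, 95% interval -0.89 to 0.16, limma adjusted p = 0.508), and -0.60 without Cont 1 (limma adjusted p = 0.0942).

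THY1 (ENSG00000154096, chr11:119417378-119424985, minus strand) encodes CD90. It was at 7742, 2939.6 and 2286 normalized counts in the controls and at 7845, 9569.9 and 7512 in the SHC4 libraries, or 4323 ± 2979 against 8309 ± 1105 (SD, n = 3). Cont 1 was within the SHC4 range, while Cont 2 and Cont 3 were below every SHC4 library. The log2 fold change was 1.15 (SE 0.38, 95% interval 0.29 to 2.00), the highest of the 10 markers, with a limma adjusted p of 0.234 and a DESeq2 adjusted p of 0.145. Without Cont 1 it was 1.67 (SE 0.17) with a limma adjusted p of 0.00167, a call made for 1.59% of genes in that direction. Of the 6 fits that each leave out 1 library, the one without Cont 1 was the fit that called THY1. The coefficient of variation of THY1 was 68.9% in the controls and 13.3% in the SHC4 libraries, and 17.7% over Cont 2 and Cont 3.

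ENG (ENSG00000106991, chr9:127815012-127854756, minus strand) encodes endoglin. It was at 8048, 5872 and 4817 normalized counts in the controls and 7119, 6489 and 6698 in the SHC4 libraries, and the SHC4 libraries lay inside the control range. Its log2 fold change was 0.15 (SE 0.19, 95% interval -0.28 to 0.57, limma adjusted p = 0.767).

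**Figure D3:**
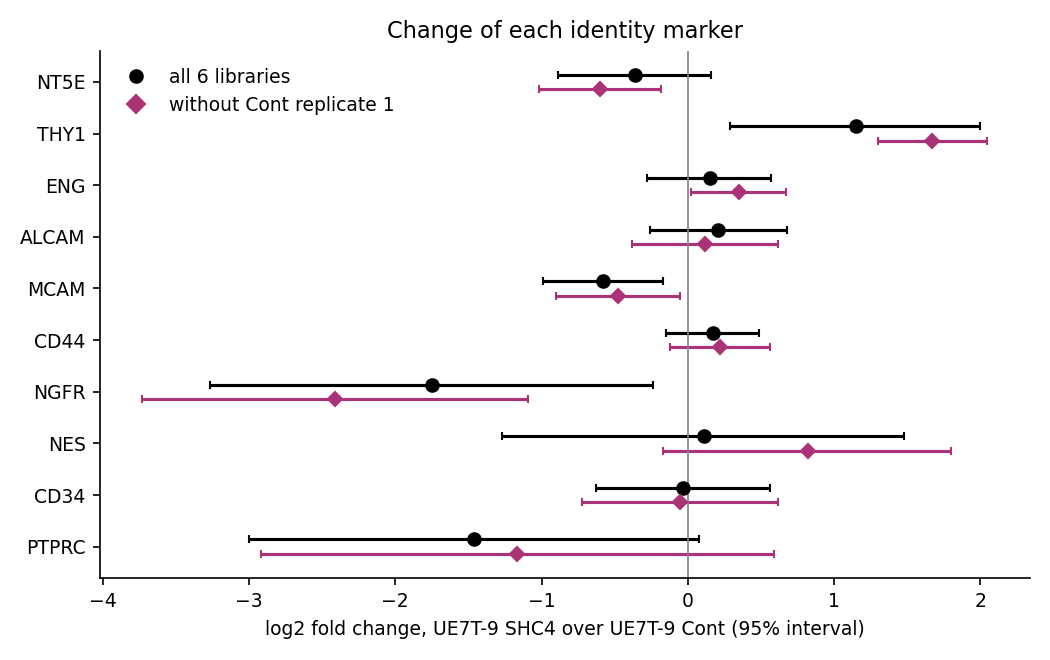
Log2 fold change of each identity marker, UE7T-9 SHC4 over UE7T-9 Cont, from limma on log2(normalized count + 1), with 95% intervals, for all 6 libraries (black circles) and without Cont replicate 1 (purple diamonds). THY1 moves from 1.15 to 1.67 and NGFR from -1.75 to -2.41 when that library is left out.

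Among the adhesion molecules, ALCAM and CD44 had small positive fold changes and MCAM a negative one, and none passed the test. ALCAM (ENSG00000170017, chr3:105366909-105576900, plus strand) binds CD6 and itself on neighbouring cells. It was at 13386, 17348 and 14887 normalized counts in the controls and 14059, 17027 and 22322 in the SHC4 libraries, with overlapping groups and a log2 fold change of 0.21 (SE 0.21, 95% interval -0.26 to 0.68, limma adjusted p = 0.692). That value was 0.03 without SHC4 3 and 0.37 without SHC4 1.

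CD44 (ENSG00000026508, chr11:35138870-35232402, plus strand) is the main receptor for hyaluronan and is annotated with 39 transcripts in GENCODE 29, which a count per gene does not separate. It was at 10835, 9838 and 9766 normalized counts in the controls and 10886, 11103 and 12262 in the SHC4 libraries. The groups did not overlap, but the lowest SHC4 library was 10886 and the highest control 10835, and the log2 fold change was 0.17 (SE 0.14, 95% interval -0.15 to 0.49, limma adjusted p = 0.629). The exact two-sided permutation p was 0.1, the smallest that 3 against 3 libraries allow.

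MCAM (ENSG00000076706, chr11:119308529-119321521, minus strand) encodes CD146, which binds laminin and marks perivascular stromal cells. It was at 1383, 1282 and 988 normalized counts in the controls and 910.5, 638 and 904 in the SHC4 libraries, or 1218 ± 205 against 818 ± 155 (SD, n = 3). Every SHC4 library was below every control. The log2 fold change was -0.58 (SE 0.18, 95% interval -0.99 to -0.17), with an adjusted p of 0.218 in limma, 0.108 in DESeq2 and 0.2 in edgeR, and leaving out single libraries moved it no further than -0.72 and -0.41. MCAM overlaps CBL on the opposite strand, whose means were 1153 in the controls and 1018 in the SHC4 libraries. Whether strand was used in counting is not stated, so that reads in the shared stretch cannot be assigned with certainty.

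NGFR and NES are markers shared with neural crest. NGFR (ENSG00000064300, chr17:49495293-49515017, plus strand), the low-affinity neurotrophin receptor, was barely detected: 4, 18 and 16 reads in the controls and 2, 5 and 2 in the SHC4 libraries. These correspond to 3.9, 21.2 and 15.7 and to 1.76, 4.16 and 2.33 normalized counts. Cont 1 was again with the SHC4 libraries, below SHC4 2. The log2 fold change was -1.75 (SE 0.67, 95% interval -3.27 to -0.24, limma adjusted p = 0.286). Without Cont 1 it was -2.41 (SE 0.59, limma adjusted p = 0.0459), which passed, as did 1.47% of genes in that direction. Summed over libraries, 9 reads stood against 38, a depth-scaled ratio of 0.214 with a 95% counting interval of 0.0911 to 0.451. Counting intervals cover counting error only, not the spread between cultures.

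NES (ENSG00000132688, chr1:156668763-156677397, minus strand) encodes an intermediate filament protein of progenitor cells. It was the most variable of the markers with a mean of at least 50, at 1568, 540.4 and 235 normalized counts in the controls and 1162, 416 and 514 in the SHC4 libraries. Replicate 1 was the highest in both groups, and the coefficient of variation was 89.4% in the controls and 58.1% in the SHC4 libraries. The log2 fold change was 0.11 (SE 0.61, 95% interval -1.27 to 1.48, limma adjusted p = 0.956), and -0.16 in DESeq2 and edgeR, so that no direction can be given for NES.

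The negative markers were low in both groups. CD34 (ENSG00000174059, chr1:207880972-207911402, minus strand), a sialomucin of hematopoietic progenitors and endothelium, was at 45.8, 49.4 and 45.3 normalized counts in the controls and 52.7, 45.8 and 39.6 in the SHC4 libraries. These values overlapped between groups, and the log2 fold change was -0.03 (SE 0.26, 95% interval -0.63 to 0.56, limma adjusted p = 0.969). CD34 was thus detected in all 6 libraries, though below the median gene per kilobase in both groups.

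PTPRC (ENSG00000081237, chr1:198638457-198757476, plus strand), the phosphatase CD45 carried by leukocytes, had 7, 3 and 3 reads in the controls and 3, 1 and 0 in the SHC4 libraries. The floor of 3 reads per library is 2.497 to 3.532 normalized counts, so every SHC4 library and 2 of the controls were at or below it. The groups did not overlap in normalized counts, but Cont 2, Cont 3 and SHC4 1 had the same 3 reads and differed only by size factor. The log2 fold change was -1.46 (SE 0.68, 95% interval -3.00 to 0.08, limma adjusted p = 0.37), and the summed 4 reads against 13 gave a ratio of 0.278 (95% counting interval 0.0661 to 0.901). An antisense gene within PTPRC, AL157402.2, had means of 0.717 and 2.64 normalized counts, so that these few reads are also uncertain in strand. The antisense genes at THY1, ENG and CD44 had means no higher than 43.8.

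Other stromal identity genes were measured beside these markers. Of 24 such genes, all tested, 20 had a positive log2 fold change and 4 a negative one, with a median of 0.26 (0.42 without Cont 1). Limma called 0 of them, and 7 had an unadjusted limma p below 0.05, against 14.4% of all tested genes. DESeq2 called CD9, PDGFRB and LEPR higher, and it called 2.2% of all genes in either direction. Without Cont 1 limma called 5 of the 24 higher, against 1.59% of all genes. The adjusted p in that fit was 0.00537 for CD9, 0.000698 for PDGFRB, 0.00934 for LEPR, 0.00262 for CXCL12 and 0.0132 for VCAM1. CXCL12 is a chemokine that holds blood progenitors in marrow, and VCAM1 an adhesion molecule for leukocytes. CXCL12 was at 19481, 4683 and 1879.9 against 24558, 19535 and 19476 (limma adjusted p = 0.25, DESeq2 adjusted p = 0.516 with all 6 libraries). VCAM1 was at 472, 164 and 245 against 411, 476 and 426 (limma adjusted p = 0.355, DESeq2 adjusted p = 0.404). In both, Cont 1 lay within the SHC4 range. CD9, a tetraspanin, was at 1508, 1048 and 636 normalized counts in the controls and 2086, 2297 and 2144 in the SHC4 libraries (log2 fold change 1.12, limma adjusted p = 0.155, DESeq2 adjusted p = 0.0121). PDGFRB, the PDGF receptor of stromal and perivascular cells, was at 4122, 1487 and 1678 against 6634, 5281 and 5178 (1.38, limma adjusted p = 0.162, DESeq2 adjusted p = 0.0171). LEPR, the leptin receptor that marks stromal cells of adult marrow, was at 862, 658 and 398 against 1493, 1132 and 1699 (1.22, limma adjusted p = 0.137, DESeq2 adjusted p = 0.00344). In each of CD9, PDGFRB and LEPR, every SHC4 library lay above every control, as in 9.13% of all tested genes. In 1 of the 24, ITGA5, an integrin chain, every SHC4 library lay below every control, as in 10.2% of all tested genes. ITGA5 was at 19411, 16197 and 20601 against 15468, 8817 and 9758 (log2 fold change -0.76, limma adjusted p = 0.206, DESeq2 adjusted p = 0.0523).

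**Figure D4:**
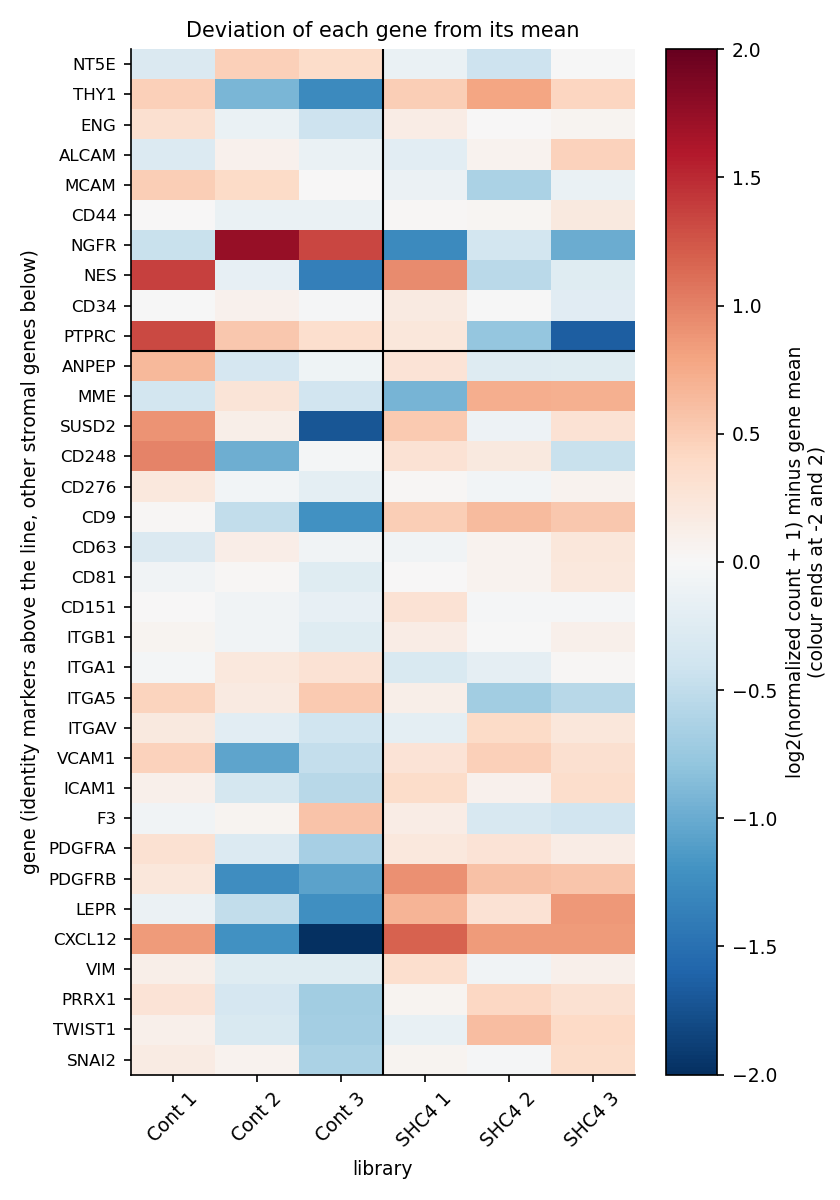
Deviation of log2(normalized count + 1) from the mean of each gene over the 6 libraries, for the 10 identity markers (above the line) and 24 other stromal identity genes, with UE7T-9 Cont at left and UE7T-9 SHC4 at right. THY1 in Cont 1 has the colour of the SHC4 libraries, and PDGFRB and CD9 are above their means in all 3 SHC4 libraries.

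Per kilobase of exon, the median marker in the controls was at 5.48 for the hematopoietic list, 1.42 for the endothelial, 2.29 for the epithelial and 2.72 for the neural crest and glial list, against 84.1 for the mural list and 29.9 for the median tested gene. Of the 12 hematopoietic genes in the files, 3 lay above the median tested gene: HLA-DRA at 111, CD14 at 41.0 and LAPTM5 at 34.7. Sums over a list, which depend on gene number and length, are given only to compare libraries. The summed level of the hematopoietic markers, 12 of 18 of which were in the files, ranged from 397 to 559 normalized counts in the controls and from 357 to 389.6 in the SHC4 libraries. That of the endothelial markers was 176 to 361 and 142 to 289.7, that of the epithelial markers 57.1 to 88.7 and 29.1 to 88.8, and that of the neural crest and glial markers 372 to 449.7 and 331 to 434. In the hematopoietic list, 8 of 11 tested genes had a negative log2 fold change and 3 a positive one. LAPTM5 (50.7, 107 and 183 against 14.1, 6.66 and 36.1) was the 1 gene of that list whose groups did not overlap. Among all tested genes, 10.2% were lower without overlap. A change of the hematopoietic list as a whole was not tested. Some genes of these lists were at or near 0: CDH5 had a highest value of 1.18, SOX10 of 1.97 and EPCAM of 4.92. Others were detected in the controls, among them ERG (endothelial) at 18.3 per kilobase, TFAP2A (neural crest and glial) at 24.8 and CLDN4 (epithelial) at 6.12. HLA-DRA, a class II gene that cultured MSCs are expected to lack at the surface, was at 262, 89.5 and 72.8 in the controls and 151, 189 and 161 in the SHC4 libraries (log2 fold change 0.47, limma adjusted p = 0.645, and 1.03 with 0.0259 without Cont 1). In bulk RNA, fewer cells of a type and less RNA per cell cannot be told apart.

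Limma called none of the partner genes of the markers with all 6 libraries. At an unadjusted limma p below 0.05 there were 6 of 11 tested adenosine pathway genes, 4 of 13 adhesion partners and 3 of 12 hyaluronan genes. There were also 2 of 12 neurotrophin genes, 1 of 7 intermediate filament genes and 0 of 10 endoglin complex genes, against 14.4% of all tested genes. Limma called a few partner genes without Cont 1, a fit that called 1.59% of all genes higher and 1.47% lower. In the adenosine pathway, 7 of 11 tested genes had a positive log2 fold change, with a median of 0.51. DESeq2 gave ADORA2B, an adenosine receptor, an adjusted p of 0.0239, where 4.14% of genes had an adjusted p below 0.05. ADORA2B was at 464, 666 and 813 normalized counts against 369, 362 and 389. Its log2 fold change (-0.79 in DESeq2, -0.76 in limma) was short of the size of 1 that a call needs. ADA, which degrades adenosine, was at 1055, 219 and 219 against 1239, 1861 and 1197 (log2 fold change 1.92, limma adjusted p = 0.188), and was called without Cont 1 (2.67, limma adjusted p = 0.000639). In the endoglin receptor complex 8 of 10 were positive (median 0.17), and limma and DESeq2 called 0. In the hyaluronan system 6 of 12 were positive (median -0.04). There HAS3, a hyaluronan synthase, passed in DESeq2 (adjusted p = 0.0377), as did 2.2% of genes, at 223, 234 and 182 against 236, 638 and 474. CEMIP, which takes part in hyaluronan breakdown, did not, at 19503, 10172 and 1822 against 34376, 42808 and 41767 (DESeq2 adjusted p = 0.209). Without Cont 1 limma called CEMIP (3.20, adjusted p = 0.0134) and VCAN, a hyaluronan-binding proteoglycan (1.20, adjusted p = 0.00343).

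Among the adhesion partners 5 of 13 were positive (median -0.02), and DESeq2 gave an adjusted p below 0.05, reached by 4.14% of genes, to ITGAX and ITGB3, both lower. ITGAX, the integrin alpha X chain of myeloid cells and a partner of THY1, was at 77, 671 and 1164 normalized counts against 6.15, 5.83 and 17.5 (log2 fold change -5.35 with a limma adjusted p of 0.0812, DESeq2 adjusted p = 1.09e-05). ITGB3, the integrin beta 3 chain, was at 401, 485 and 460.4 against 265, 281 and 218 (DESeq2 adjusted p = 0.00216). Without Cont 1 limma called ITGAX (adjusted p = 0.000639) and PAG1, an adaptor of Src-family kinases (-1.21, adjusted p = 0.0241), lower. Among neurotrophin genes 6 of 12 were positive (median 0.00), and NTRK2, the receptor for BDNF, was at 518, 407 and 199.7 against 655, 1515 and 1378 (DESeq2 adjusted p = 0.00116, and limma adjusted p = 0.0191 without Cont 1). Of the intermediate filament genes 2 of 7 were positive (median -0.12), and VIM, the vimentin of mesenchymal cells, was at 28226, 22045 and 22098 against 32972, 24809.9 and 28129.

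**Figure D5:**
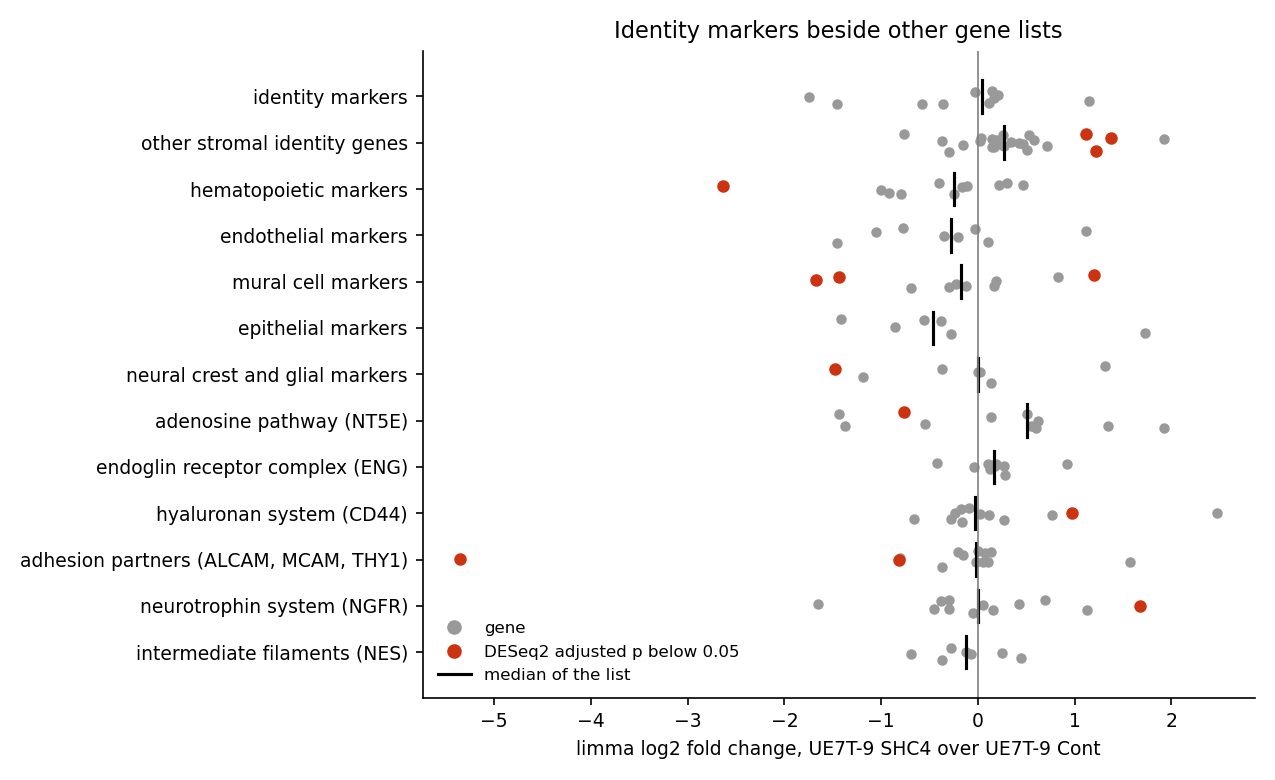
Limma log2 fold change, UE7T-9 SHC4 over UE7T-9 Cont, of each tested gene of the identity markers and of 12 other lists, with a black line at the median of each list and red points for genes with a DESeq2 adjusted p below 0.05. The identity markers hold no red point; the lowest red point, ITGAX (-5.35), belongs to the adhesion partners.

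The genes whose profile over the 6 libraries was nearest to 3 markers were found by the mean absolute difference of centred log2 values among 12678 genes. For NT5E they were GALNT3 (0.0381) and ZNF85 (0.0628). For THY1 they were SLC4A3 (0.0964) and PCOLCE (0.0971), and PCOLCE, an enhancer of procollagen processing, was at 13141, 4969 and 3332 normalized counts in the controls and 12522, 13532 and 11146 in the SHC4 libraries. For ENG they were DOCK10 (0.0289) and TBL1X (0.029). The nearest other marker was farther away in each case, MCAM for NT5E (0.265), ENG for THY1 (0.551) and CD44 for ENG (0.147).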

How the data were processed

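RNA of 3 UE7T-9 Cont and 3 UE7T-9 SHC4 libraries was prepared with RNeasy and NEBNext Ultra RNA kits and sequenced on a NovaSeq instrument. The deposited values are a signal per gene, made by dividing each count by the size factor of its library, and 100% of them gave whole reads (tolerance 0.01). The submitters' processing notes name HISAT2 2.0.5, featureCounts 1.5.0-p3 and DESeq2. The build is not given in the sources used here. All 28181 identifiers matched GENCODE 29, which gave symbols, positions and exon lengths.

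Values were tested on the log2(value + 1) scale with limma 3.58.1 (R 4.3.3, eBayes with trend) over the 23040 genes whose mean reached 1, leaving out 5141, and adjusted over all of them; the fold change understates that of low genes. Recovered reads went to DESeq2 1.42.0 and edgeR 4.0.16 (quasi-likelihood). Scripts were tested on simulated data. From the other lists, the genes called by limma or DESeq2, otherwise up to 3 with the largest fold change (mean at least 50), and the 2 with the highest level per kilobase could be named. A result that this rule would name is not reported here. Beyond this rule, VCAM1, ITGA5, CDH5, SOX10 and EPCAM were named after their values were seen. The markers and lists were chosen with earlier results of these data known. No 2 libraries were duplicates (mean chi-square per gene 13.1 to 145).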

Additional observations from a re-analysis of the deposited data

How the results depend on the processing

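No marker was called with all 6 libraries under any of the alternatives run. The 12 genes called higher and 2 lower became 31 and 9 with no filter on low values, 19 and 5 with library size scaling, 20 and 4 with TMM, and 170 and 185 with DESeq2; 1 was called lower with pseudocount 0.1 and 1 with edgeR. Leaving out each library in turn gave 1 to 367 higher and 0 to 339 lower, and 0 to 1 markers called higher and 0 to 1 lower. The calls came without Cont 1, for THY1 (range 0.79 to 1.67) and NGFR (-2.41 to -1.32). The fold change changed sign for ENG (-0.02 to 0.35), CD34 (-0.13 to 0.07) and NES (-0.55 to 0.82, and -0.16 in DESeq2 and edgeR); the cause was not tested. NT5E, ALCAM (0.03 to 0.37), MCAM, CD44 and PTPRC kept their direction with each library left out. Library size scaling moved the median log2 fold change of all genes to -0.104. All 10 ranks of level held with the longest transcript as length. NGFR and PTPRC, at a few reads, gave no value with a mean of at least 10 or in edgeR, and no adjusted p in DESeq2.

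When replicate numbers entered as a block, 25 genes were called higher and 14 lower, and no marker. Deviations of same-numbered libraries correlated by 0.148, 0.013 and -0.00696 over 23040 genes, and by 0.409, 0.146 and 0.149 over 12678 genes with a mean of at least 50, where Cont 2 correlated best with SHC4 3 (0.517). The numbers were not taken as pairs.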

Other observations

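Mural cell genes, which cover pericytes and smooth muscle, moved in both directions, with 4 of 10 positive. DESeq2 called 3 of them, where it called 2.2% of all genes. It called RGS5, a pericyte gene, higher (206, 155 and 95.4 normalized counts in UE7T-9 Cont against 251, 350.4 and 425 in UE7T-9 SHC4, adjusted p = 0.0121). It called ABCC9, a potassium channel subunit, lower (469, 766 and 1281 against 266, 201 and 262, adjusted p = 3.14e-05), and CNN1, the calponin of smooth muscle, lower (323, 173 and 336 against 134, 82.4 and 83.8, adjusted p = 0.000867). Limma called none of the 3 with all 6 libraries, with adjusted p of 0.166, 0.102 and 0.122. Without Cont 1 limma called all 3, with adjusted p of 0.0174, 0.0025 and 0.0493 and log2 fold changes of 1.45, -2.03 and -1.30. That fit called 1.59% of all genes higher and 1.47% lower. The summed level of the mural list was 13232 to 20489 in UE7T-9 Cont and 16189.9 to 24462 in UE7T-9 SHC4.

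LAPTM5, a lysosomal protein of blood cells, was the hematopoietic gene that DESeq2 called, where it called 2.2% of all genes. It was at 50.7, 107 and 183 normalized counts against 14.1, 6.66 and 36.1 (DESeq2 adjusted p = 0.00158, limma adjusted p = 0.155, and 0.0187 without Cont 1).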
